A study of Rattus norvegicus with 12 samples.

Results

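Mitochondrial ribosomal protein genes, which encode the protein parts of the ribosome inside mitochondria, were followed in rat C6 glioma xenografts from mice given (R,R')-4-methoxy-1-naphthylfenoterol (MNF) or its vehicle. The genes were taken by name: every symbol of the array's annotation that begins with Mrpl or Mrps and a digit, whatever its value in the tumors. The annotation held 60 such genes, 38 named for the large subunit (Mrpl) and 22 for the small subunit (Mrps), each with 1 probe. A gene was measured where its probe had a detection p-value under 0.02 on all 12 arrays, which left 56 genes, 36 large and 20 small, of the 7620 genes and unnamed probes tested.

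C6 is a glial tumor cell line of the rat, and the cells were grown under the skin of the left flank of female athymic nude mice of the strain SWISS nu+/nu+. From day 3 after the cells were placed, mice received MNF, a derivative of the beta2-adrenergic agonist fenoterol, at 2 mg/kg or vehicle alone into the peritoneum on 5 days of each week for 19 days. Both groups received the solvent, 100 µM ascorbic acid in saline. Each group held 6 tumors, 3 from each of 2 cohorts of mice, and each array held the RNA of 1 tumor (below, tumors 1 to 3 of a group were from cohort 1 and tumors 4 to 6 from cohort 2). The model was 1 established cell line in a host that lacks T cells, and whole tumors were profiled, so host tissue was in the RNA. The probes were designed on rat genes and the host was the mouse, so what host transcripts added through cross-hybridization was not measured. In whole tumors, fewer cells of a type and less RNA per cell cannot be told apart.

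Mitochondria keep a small genome whose messages encode core subunits of the respiratory chain and of ATP synthase, and a ribosome of their own translates them. The RNA of that ribosome comes from mitochondrial DNA, but all of its proteins are encoded in the nucleus, made in the cytosol and imported. The small subunit reads the message, and the large subunit joins amino acids and carries the exit tunnel beside the inner membrane. Some of the proteins descend from bacterial ribosomal proteins, and others are found only in mitochondria.

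Promoter sequence is shown for the members whose difference between MNF and vehicle had the smallest unadjusted p-values and that had an entry in the promoter table, so that the stretches beside these starts can be set beside their values. Each line gives the 120 bases before the annotated start, read toward the gene, from RefSeq on the rat build GRCr8. Of 60 members, 49 were matched to the table. Capitals mark a match to CCGGAAG, a core of ETS factor sites, which stood 38 to 32 bases before the start of Mrps18a. Beyond the bases shown, Mrps17 had the GC box GGGCGG at 188 to 183, 160 to 155 and 138 to 133 bases before its start. The stretches with no capitals held none of the 6 motifs searched. Their places are chr1:50384832-50384951 on the plus strand for Mrpl18, chr2:117447362-117447481 on the minus strand for Mrpl47, chr12:32587813-32587932 on the minus strand for Mrps17 and chr9:22367381-22367500 on the minus strand for Mrps18a.
Mrpl18: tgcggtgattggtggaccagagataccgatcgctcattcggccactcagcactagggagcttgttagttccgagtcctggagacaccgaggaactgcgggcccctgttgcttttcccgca
Mrpl47: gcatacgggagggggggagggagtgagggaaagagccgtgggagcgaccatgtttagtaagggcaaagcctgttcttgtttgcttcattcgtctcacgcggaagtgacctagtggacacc
Mrps17: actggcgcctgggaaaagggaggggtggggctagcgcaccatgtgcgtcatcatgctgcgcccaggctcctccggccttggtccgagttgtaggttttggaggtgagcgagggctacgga
Mrps18a: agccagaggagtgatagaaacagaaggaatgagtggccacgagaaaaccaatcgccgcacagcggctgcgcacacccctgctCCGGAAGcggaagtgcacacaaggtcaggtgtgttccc

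Over the whole arrays, mean signal was 500.4 to 858.2 units on the MNF arrays and 707.6 to 1062 units on the vehicle arrays, so the MNF arrays were on the whole dimmer before scaling. The median signal of the 56 members was 710.9 to 1635 units with MNF and 1259 to 2167 units with vehicle. Of 10 markers listed for glial cells, 8 were on the array and all 8 were detected on every array. Markers of endothelium and of fat gave no measured gene. Of 10 skeletal muscle markers 9 were on the array and 3 were measured, with Myh4 and Actn3 detected nowhere; the summed signal of the list was 0.009% to 1.18% of an array's signal with MNF and 0.00777% to 0.416% with vehicle. The 4 blood markers made up 0.0811% to 0.498% with MNF and 0.0414% to 0.204% with vehicle. The part of signal strength and of muscle and blood RNA in the differences given here was not tested.

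**Figure D1:**
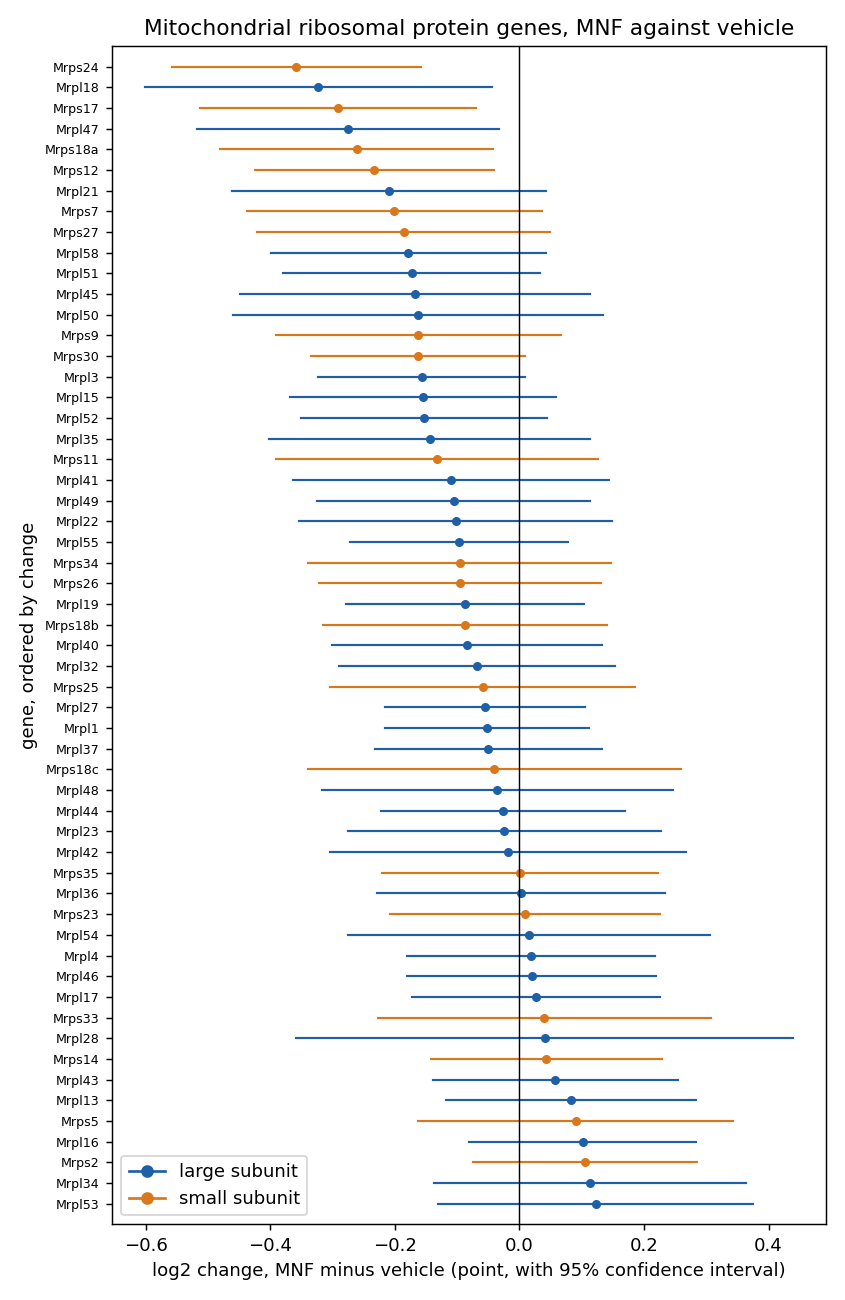
Difference between MNF and vehicle tumors for each of the 56 measured genes (x axis, log2 change with its 95% confidence interval from limma; y axis, genes ordered by change; 6 tumors a group; blue, large subunit; orange, small subunit). Of the 56 points, 39 lie below 0, and the intervals of 6 genes, all on the lower side, leave out 0.

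MNF and vehicle tumors were compared first, to ask whether the treatment went with another level of these genes. With MNF, 39 of the 56 members (69.6%) had a mean below that with vehicle, against 49.8% of all genes tested. The median change of the members was -0.086 on the log2 scale, and the median of all genes tested was 0.0013. No member passed an adjusted p of 0.05 (limma, Benjamini-Hochberg over 7620 tests; percent called among all genes, 0), and none of the 7620 did, the smallest adjusted p being 0.499. At an unadjusted p under 0.05, 6 members (10.7%) were lower with MNF against 4.78% of all genes, and 0 members were higher against 3.22% of all genes. The member changes ran from -0.36 to 0.12, whereas those of all genes ran from -0.89 to 1.97. The median was -0.041 without MNF tumor 2, -0.049 without MNF tumor 5 and -0.047 without vehicle tumor 4. With quantile in place of Z-normalization it was -0.049. The count of 6 was 3 without MNF tumor 5, 10 without vehicle tumor 6 and 12 of 60 with no detection filter.

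The 6 members with an unadjusted p under 0.05 were 4 genes of small subunit name and 2 of large subunit name. All 6 belong to proteins with a bacterial counterpart, as do 31 of the 56 members. Levels are log2 signals after Z-normalization of each array, where 0 is the mean of the array over the probes detected on all arrays, and levels of different genes are not set against each other.

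Mrps24 encodes the counterpart of bacterial protein S3, which lines the channel where the message enters the small subunit. Its level was 1.87 at the lowest, 2.23 at the median and 2.30 at the highest with MNF, and 2.37, 2.51 and 2.77 with vehicle. Every MNF tumor was below every vehicle tumor, which was so for 1 of the 56 members and for 0.249% of all genes tested. The log2 change was -0.36 (SE 0.09, n = 6 a group; 95% confidence interval -0.56 to -0.16), or 78.0% of the vehicle level, with an unadjusted p of 0.00181 and an adjusted p of 0.499 (limma). The exact two-sided permutation test within cohorts gave p = 0.005, the smallest that its 400 arrangements allow. The order of the tumors already fixes this value, so it adds nothing to the separation given above.

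Mrps17 encodes a protein that binds the RNA of the small subunit early in its assembly in bacteria. Its level with MNF was 0.30 at the lowest, 0.53 at the median and 0.81 at the highest, and with vehicle 0.70, 0.82 and 0.95. The groups overlapped: MNF tumor 4 lay within the vehicle range. The change was -0.29 (SE 0.10; unadjusted p 0.0139, adjusted p 0.599, limma). Mrps12 encodes the counterpart of bacterial S12, which sits at the decoding site and is known for streptomycin resistance in bacteria. Its level with MNF was 1.32, 1.62 and 1.89 at the lowest, median and highest, and with vehicle 1.69, 1.78 and 2.13. The groups overlapped, and the change was -0.23 (SE 0.09; unadjusted p 0.0211, adjusted p 0.599, limma).

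Mrps18a carries a small subunit name, but structures of the mammalian ribosome place its protein in the large subunit. Its level with MNF was 1.19, 1.37 and 1.56 at the lowest, median and highest, and with vehicle 1.35, 1.63 and 1.87. Vehicle tumor 6 lay among the MNF tumors and the other vehicle tumors overlapped only with MNF tumor 3. The change was -0.26 (SE 0.10; unadjusted p 0.0230, adjusted p 0.609, limma). Its start is the one with a CCGGAAG match in the stretch shown above. The other family members named for S18 had changes of -0.087 (SE 0.11) for Mrps18b and -0.04 (SE 0.14) for Mrps18c, with unadjusted p values of 0.425 and 0.776 (limma).

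Mrpl18 encodes a protein of the central protuberance of the large subunit, and its human counterpart has been tied to import of 5S ribosomal RNA. Its level with MNF was -1.46, -1.04 and -0.50 at the lowest, median and highest, and with vehicle -0.90, -0.64 and -0.58. MNF tumor 6 had the highest level of all 12, and vehicle tumor 5 was lower than MNF tumor 3. The change was -0.32 (SE 0.13; unadjusted p 0.0263, adjusted p 0.609, limma). Mrpl47 encodes the counterpart of bacterial L29, which lies by the exit tunnel. Its level with MNF was -0.19, 0.0046 and 0.42 at the lowest, median and highest, and with vehicle -0.07, 0.41 and 0.50. The groups overlapped, and the change was -0.28 (SE 0.11; unadjusted p 0.0287, adjusted p 0.609, limma).

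**Figure D2:**
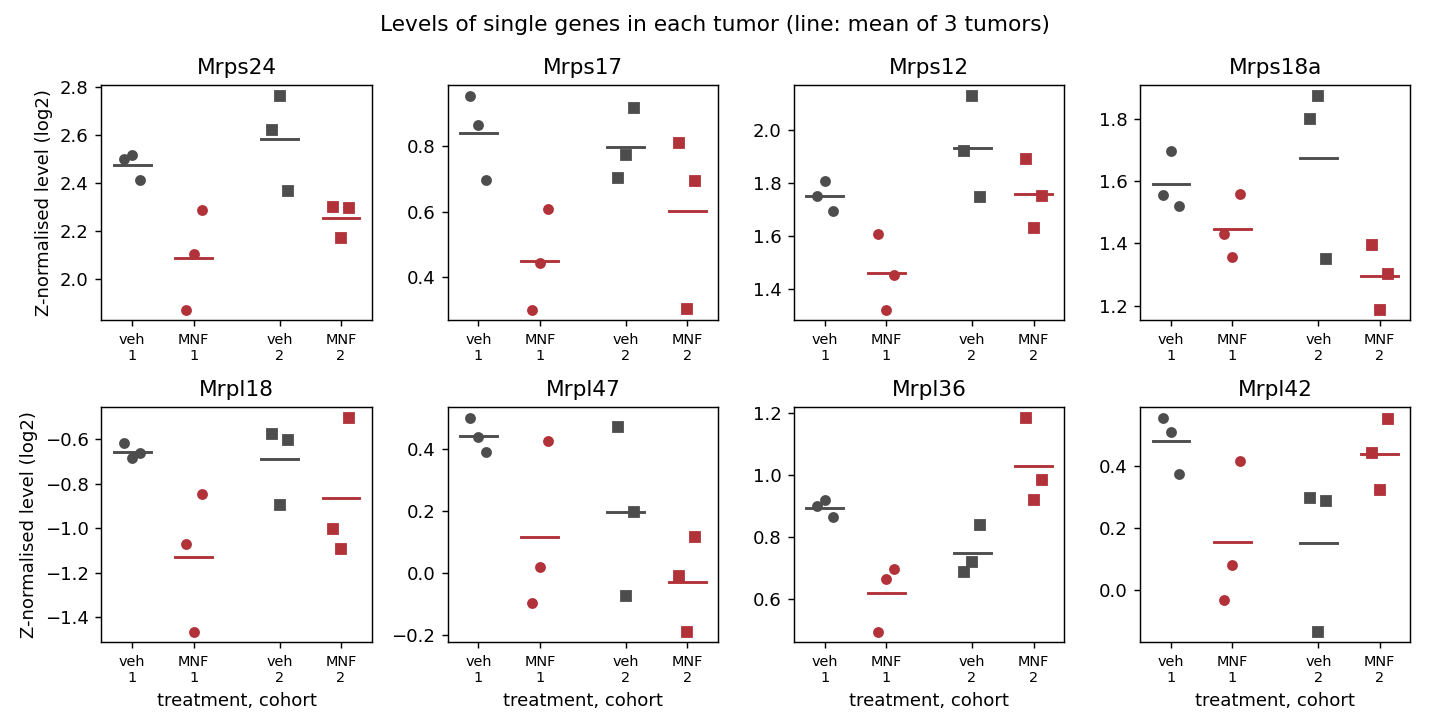
Level in each tumor (y axis, Z-normalised log2 signal, a separate scale for each gene) of 8 genes, by treatment and cohort (x axis; grey, vehicle; red, MNF; circles, cohort 1; squares, cohort 2; line, mean of 3 tumors). Mrps24 is the gene with all 6 MNF points below all 6 vehicle points, and Mrpl36 is the one with all MNF points below in cohort 1 and above in cohort 2.

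The next members by unadjusted p did not pass 0.05. Mrps30, another gene whose protein structures place in the large subunit despite its name, had a change of -0.16 (SE 0.08, p 0.0614, limma). Mrpl3, whose human counterpart is mutated in a mitochondrial cardiomyopathy, had -0.16 (SE 0.08, p 0.0621, limma). Mrps7, which binds the RNA of the small subunit head, had -0.20 (SE 0.11, p 0.0902, limma), and Mrpl51 had -0.17 (SE 0.10, p 0.0923, limma). The 17 members above 0 were close to it: the highest were Mrpl53 at 0.12 (SE 0.12), Mrpl34 at 0.11 (SE 0.12), Mrps2 at 0.11 (SE 0.08), Mrpl16 at 0.10 (SE 0.08), Mrps5 at 0.09 (SE 0.12) and Mrpl13 at 0.08 (SE 0.09), with unadjusted p values from 0.228 to 0.455 (limma). Mrps14 at 0.04 (SE 0.09) and Mrps33 at 0.04 (SE 0.12) completed the small subunit genes of smallest p on that side.

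The 4 members that failed detection were Mrpl14, detected on 9 arrays, Mrps15, detected on 2, and Mrpl30 and Mrps31, detected on 0. Median signals of these probes were 165.2 for Mrpl14, 154.0 for Mrps15, 122.4 for Mrpl30 and 114.8 for Mrps31, whereas the dimmest measured member, Mrps2, had a median of 236.0 units. The annotation also held 3 lower-case symbols that the naming rule did not take: mrpl9 at 0.06 (SE 0.09), mrpl11 at -0.31 (SE 0.09) and mrpl24 at -0.017 (SE 0.14). Of these, mrpl11 had an unadjusted p of 0.00508 and an adjusted p of 0.499 (limma).

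Large and small subunit genes were then set side by side. The median change with MNF was -0.062 over the 36 large subunit genes and -0.096 over the 20 small subunit genes, and 25 and 14 of them were below 0. The quartiles ran from -0.15 to 0.016 for the large and from -0.19 to 0.0026 for the small subunit. The difference between the medians, 0.034, was smaller than 0.0685, the SD between single tumors of the same treatment and cohort in large minus small subunit level. That SD describes single tumors and is not the error of the difference, which was not tested. At an unadjusted p under 0.05, 2 large and 4 small subunit genes were lower (4.78% of all genes tested). Moved to the subunit that structures give (Mrps30 and Mrps18a to the large), the genes split into 38 large, with a median of -0.076 and 3 lower at that p, and 18 small, with a median of -0.091 and 3 lower. By descent, the median was -0.087 over 31 genes with a bacterial counterpart, 6 of them lower at an unadjusted p under 0.05, and -0.084 over 25 genes found only in mitochondria, 0 of them at that p. This split covers only genes with an Mrp name. Of 3 measured ribosomal proteins with other names, which were not classed by descent, 2 (Gadd45gip1 and Chchd1, below) were lower at that p.

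**Figure D3:**
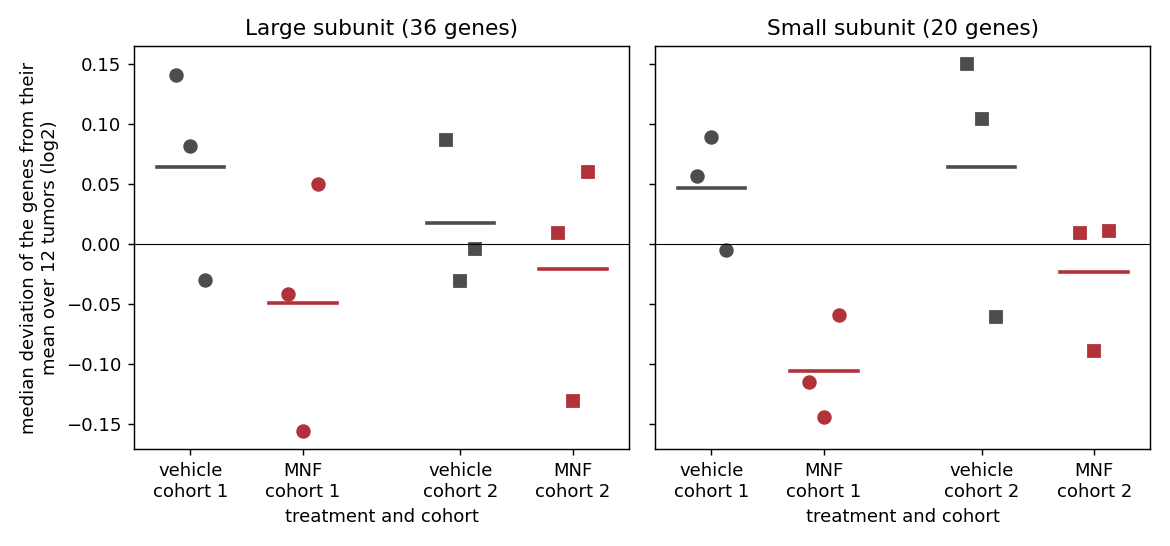
Median over the genes of each subunit of their deviation from their own mean over the 12 tumors (y axis, log2), for each tumor by treatment and cohort (x axis; line, mean of 3 tumors). The lowest point of both panels is the same MNF tumor of cohort 1, near -0.15, and the vehicle and MNF points overlap in both panels.

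Tumor by tumor, the median deviation of the 56 members was -0.15 at the lowest, -0.032 at the median and 0.044 at the highest with MNF, and -0.033, 0.054 and 0.12 with vehicle. MNF tumors 2 and 5 were the lowest and had 47 and 45 of the 56 genes below their own means. Vehicle tumors 1 and 4 were the highest and had 13 and 16 genes below. MNF tumor 1, at -0.073, also lay below every vehicle tumor, and vehicle tumor 2, at 0.084, lay above every MNF tumor. The remaining tumors of both groups overlapped. The SD between single tumors of the same treatment and cohort in this median was 0.0825, close in size to the -0.086 between the groups. It is a spread of single tumors, not the error of a difference between group means. The small subunit genes had -0.14, -0.074 and 0.011 with MNF at the lowest, median and highest, and -0.061, 0.073 and 0.15 with vehicle. The large subunit genes had -0.16, -0.016 and 0.060 with MNF, and -0.030, 0.039 and 0.14 with vehicle.

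The 2 cohorts were separate runs of the animal experiment, so the difference between MNF and vehicle was taken in each, with 3 tumors a group. In cohort 1, 44 of 56 members were below 0 (49.9% of all genes) and the median was -0.088, with -0.088 for the large and -0.084 for the small subunit. In cohort 2, 35 were below 0 (52% of all genes) and the median was -0.085, with -0.039 for the large and -0.13 for the small subunit. No member passed an adjusted p of 0.05 in either cohort (limma; percent called among all genes, 0 in each). At an unadjusted p under 0.05, cohort 1 had 6 members lower (3.69% of all genes) and 0 higher (3.82%), and cohort 2 had 3 lower (5.45%) and 1 higher (4.62%). Below 0 in both cohorts were 27 members (48.2%, against 24.5% of all genes), and above 0 in both were 4 (7.14%, against 22.6%). The vehicle and MNF tumors of one cohort share no animal with those of the other.

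Counting tumors that did not overlap, 11 members (19.6%) had all 3 MNF tumors of cohort 1 below all 3 vehicle tumors, against 7.83% of all genes, and 0 had them all above, against 7.93%. They were Mrpl18, Mrpl36, Mrpl49, Mrpl50, Mrpl55, Mrps11, Mrps12, Mrps17, Mrps24, Mrps27 and Mrps30. In cohort 2, 4 members (7.14%) lay all below, against 7.1% of all genes, and these were Mrpl3, Mrpl21, Mrpl27 and Mrps24. The 2 that lay all above in cohort 2, against 6.38% of all genes, were Mrpl36 and Mrpl42. Mrps24 was thus the 1 member whose MNF tumors lay below within each cohort (0.643% of all genes), with a change of -0.39 (SE 0.13) in cohort 1 and -0.33 (SE 0.13) in cohort 2 (limma, unadjusted p 0.0134 and 0.0297).

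**Figure D4:**
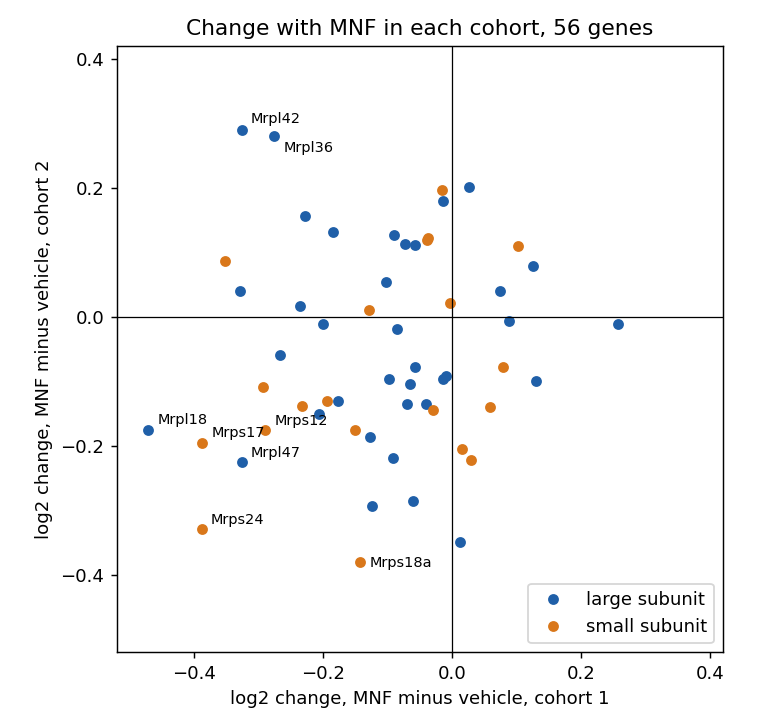
Log2 change between MNF and vehicle in cohort 1 (x axis) and in cohort 2 (y axis) for the 56 genes, 3 tumors a group in each cohort (blue, large subunit; orange, small subunit). Of the points, 27 lie below 0 on both axes and 4 above 0 on both, and Mrpl36 and Mrpl42 stand apart at the upper left.

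The change with MNF was also tested for a difference between the cohorts. No member passed an adjusted p of 0.05 for this interaction (limma; percent called among all genes, 0), and at an unadjusted p under 0.05, 2 members had a higher change in cohort 2 (3.57%, against 5.2% of all genes) and 0 a lower one (4.13% of all genes). The change was lower in cohort 2 for 23 of the 56 members, against 53% of all genes. Both were large subunit genes. Mrpl36, which encodes the counterpart of L36, the smallest protein of the bacterial ribosome, had levels of 0.50, 0.67 and 0.70 in MNF tumors 1 to 3 of cohort 1 and of 0.90, 0.92 and 0.86 in the vehicle tumors. In cohort 2 its levels were 1.19, 0.92 and 0.99 with MNF and 0.69, 0.72 and 0.84 with vehicle. The tumors thus separated in both cohorts and in opposite directions. This order, all below in cohort 1 and all above in cohort 2, was seen for 0.577% of all genes, and the reverse order was not counted. Its change was -0.28 in cohort 1 and 0.28 in cohort 2 (SE 0.11 each), a difference of 0.56 (SE 0.16) with an unadjusted p of 0.00376 and an adjusted p of 0.529 (limma).

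Mrpl42 encodes a large subunit protein found only in mitochondria. Its levels in cohort 1 were -0.03, 0.08 and 0.41 with MNF and 0.56, 0.51 and 0.37 with vehicle, which overlapped. In cohort 2 they were 0.44, 0.32 and 0.55 with MNF and 0.30, -0.14 and 0.29 with vehicle, all MNF tumors above. The change was -0.33 in cohort 1 and 0.29 in cohort 2 (SE 0.15 each), with an unadjusted p of 0.0129 and an adjusted p of 0.529 for the difference (limma). Of the small subunit genes, Mrps11 had the smallest p for this difference, with -0.35 in cohort 1 and 0.086 in cohort 2 (SE 0.15 each, unadjusted p 0.0639, limma).

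Cohort 2 was next compared with cohort 1 over both treatments. The members differed little between the cohorts: the median change was -0.014, with -0.0072 for the large and -0.029 for the small subunit, and 31 of 56 were below 0 (55.4%, against 50% of all genes). No member passed an adjusted p of 0.05 (limma; percent called among all genes, 0), and no member had all 6 tumors of one cohort below all 6 of the other (0.105% of all genes in each direction). At an unadjusted p under 0.05, 1 member was lower in cohort 2 (1.79%, against 3.88% of all genes) and 1 was higher (1.79%, against 3.77%). The lower one was Mrpl16, whose bacterial counterpart L16 helps place transfer RNA. Its level was -1.49, -1.25 and -1.12 at the lowest, median and highest in cohort 1 and -1.67, -1.49 and -1.42 in cohort 2. The cohorts overlapped, and the change was -0.24 (SE 0.08; unadjusted p 0.0153, adjusted p 0.621, limma).

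The higher one was Mrps12, one of the genes of smallest p with MNF. Its level was 1.32, 1.65 and 1.81 at the lowest, median and highest in cohort 1 and 1.63, 1.82 and 2.13 in cohort 2. The change was 0.24 (SE 0.09; unadjusted p 0.0185, adjusted p 0.632, limma). Mrpl45, which holds the ribosome at the inner membrane, had -0.26 (SE 0.13) and Mrpl34 had 0.21 (SE 0.12), with unadjusted p values of 0.0672 and 0.0883 (limma). Mrpl44, a large subunit protein with a fold like RNase III, had 0.15 (SE 0.09), and Mrpl19 had 0.14 (SE 0.09). Of the small subunit genes, Mrps18c had -0.21 (SE 0.14) and Mrps26 had -0.15 (SE 0.11). Within vehicle tumors 1 member was lower in cohort 2 and 0 were higher at an unadjusted p under 0.05 (1.96% and 1.97% of all genes), and within MNF tumors 1 was lower and 4 were higher (7.87% and 7.06% of all genes). Members below 0 numbered 34 within vehicle tumors (48.2% of all genes) and 28 within MNF tumors (50.9% of all genes). The skeletal muscle gene Myl1 was 3.25 higher in cohort 2 on the log2 scale (SE 0.79, unadjusted p 0.00105, adjusted p 0.521, limma), and the part of muscle RNA in these values was not tested.

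**Figure D5:**
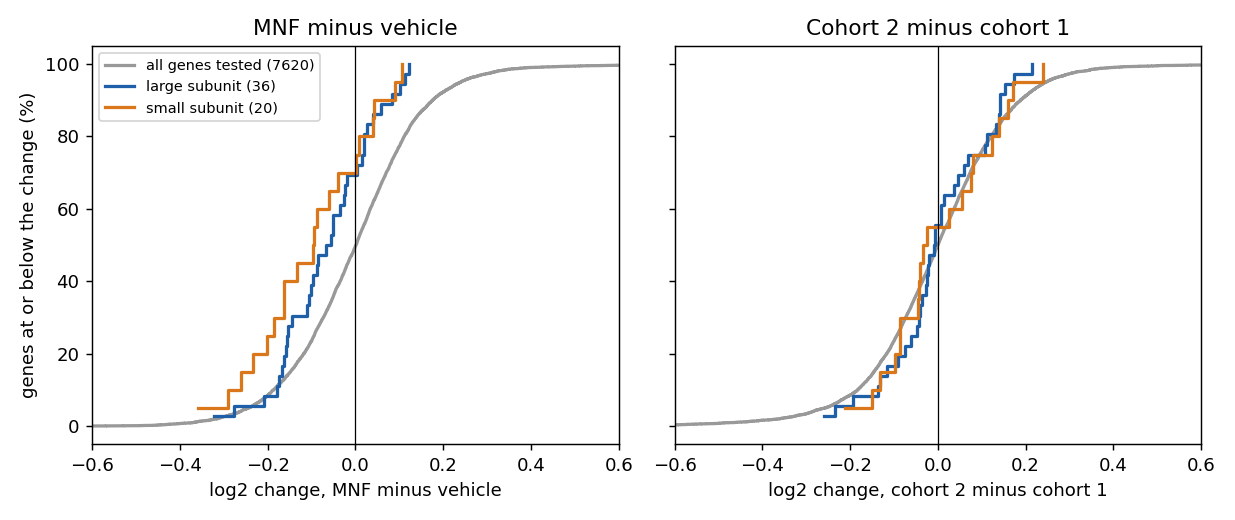
Share of genes at or below a given log2 change (y axis, percent; x axis, log2 change, drawn from -0.6 to 0.6) for MNF minus vehicle (left) and cohort 2 minus cohort 1 (right), over all 7620 genes tested (grey), 36 large subunit genes (blue) and 20 small subunit genes (orange). On the left the member curves cross 0 near 70% and the grey curve near 50%, and on the right all 3 curves cross 0 between 50% and 56%.

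Other proteins that work with this ribosome were described from lists chosen by function. Among all genes tested, 49.8% were below 0 with MNF, and at an unadjusted p under 0.05, 4.78% were lower and 3.22% were higher. Of 5 ribosomal proteins that bear other names, 3 were measured, all 3 were below 0 with MNF and 2 had an unadjusted p under 0.05. Gadd45gip1, a large subunit protein by the exit tunnel, had a change of -0.37 (SE 0.11; unadjusted p 0.0037, adjusted p 0.499, limma), with -0.40 in cohort 1 and -0.34 in cohort 2. Chchd1, a small subunit protein, had -0.26 (SE 0.11; unadjusted p 0.0307, limma), and Aurkaip1 had -0.093 (SE 0.07; unadjusted p 0.193, limma).

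Of 13 translation factors of mitochondria, 6 were measured, 4 were below 0, and 0 had an unadjusted p under 0.05 in either direction. Tufm, the elongation factor that brings transfer RNA to the ribosome, had -0.17 (SE 0.09, p 0.094, limma), and Mtfmt, which formylates the initiator methionine, had 0.06 (SE 0.08, p 0.495, limma). Of 22 genes that charge mitochondrial transfer RNAs, 10 were measured, 5 on each side of 0 and 0 at that p. Yars2, which charges the tyrosine transfer RNA, had -0.26 (SE 0.14, p 0.0786, limma), and Rars2, which charges that of arginine, had 0.14 (SE 0.12, p 0.259, limma). The median changes of these lists were -0.013 and 0.0065.

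Of 27 genes of ribosome assembly and mitochondrial DNA expression, 19 were measured, with a median of -0.012, 11 below 0 and 8 above; 1 on each side had an unadjusted p under 0.05. The lower was Tfam, which packs and transcribes mitochondrial DNA, at -0.29 (SE 0.10, p 0.0166, adjusted p 0.599, limma). The higher was Mterf4, which guides an RNA methyltransferase in large subunit assembly, at 0.29 (SE 0.11, p 0.017, adjusted p 0.599, limma). Of 10 regulators of nuclear genes for mitochondria, 4 were measured and 3 were below 0. Gabpa, the DNA-binding subunit of the ETS factor GABP, had -0.26 (SE 0.11, p 0.0368, adjusted p 0.609, limma), and Pprc1, a coactivator related to PGC-1, had 0.04 (SE 0.09, p 0.645, limma). Of 13 genes of import and mitochondrial mass, 11 were measured, with a median of 0.039 and 5 below 0.

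Set beside these, 56 cytosolic ribosomal protein genes had a median change of 0.11 with MNF, with 16 below 0 (49.8% of all genes); at an unadjusted p under 0.05, 0 were lower (4.78% of all genes) and 5 higher (3.22%). The 64 genes of the respiratory chain and ATP synthase had a median of -0.0095, with 36 below 0, 2 lower and 1 higher at that p, to be read against the same shares. By cohort, the cytosolic genes had medians of 0.27 and -0.07 in cohorts 1 and 2, and the respiratory chain genes -0.051 and 0.04. MNF tumor 1 had the highest cytosolic value, a median deviation of 0.39, and the other tumors lay between -0.17 and 0.15. The 3 lists share all 12 tumors and no difference between them was tested. Of 16 cell division genes, 13 were measured, all 13 were below 0 with MNF with a median of -0.36, and 10 had an unadjusted p under 0.05, against 49.8% and 4.78% of all genes.

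Promoters were searched for 6 motifs in the 250 bases before the start, on both strands, in the 45 measured members that were matched and in all 27457 promoters of the table. Matches of different motifs could share bases, and a site between the starts of 2 members was counted for both. The promoters of the table were taken whatever the type of gene and whether or not it was detected in the tumors. The shares over all promoters are thus not those of detected genes. The ETS core CCGGAAG was found in 10 of 45 members (22.2%) and in 7.74% of all promoters. The site of NRF1, a factor known for genes of mitochondria, was found in 5 (11.1%) and in 4.17%. AAGATGGCG, a site of YY1, was found in 1 (2.22%) and in 0.736%. The GC box GGGCGG was found in 20 (44.4%) and in 32.4%, TATAAA in 7 (15.6%) and in 13.1%, and the E-box CACGTG in 3 (6.67%) and in 5.79%. Of the 10 members with the ETS core, 8 were among the 32 matched members below 0 with MNF and 2 among the 13 above 0. In the same order, the GC box was found in 15 and 5, TATAAA in 5 and 2, and the NRF1 site in 4 and 1. The E-box was found in 2 and 1, and the YY1 site in 0 and 1. No motif was tested for a link with the direction of change. These matches are letters in a window and were not tested for binding.

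Of the 45 measured members that were matched, 15 start within 1000 bases of a protein-coding gene on the other strand that is read away from them. The share over all genes was not computed. Mrpl46 and Mrps11, a large and a small subunit gene, form such a pair, with starts 234 bases apart, and the stretch between them, chr1:142117031-142117263 in GRCr8, is shown from the minus strand because both genes are members. Of the 6 motifs, TATAAA was found in it once, read on the other strand, and capitals mark that match, 157 to 152 bases before the start of Mrpl46. The site lay in the searched windows of both genes and was counted for each of them in the shares above.
Mrpl46 to Mrps11: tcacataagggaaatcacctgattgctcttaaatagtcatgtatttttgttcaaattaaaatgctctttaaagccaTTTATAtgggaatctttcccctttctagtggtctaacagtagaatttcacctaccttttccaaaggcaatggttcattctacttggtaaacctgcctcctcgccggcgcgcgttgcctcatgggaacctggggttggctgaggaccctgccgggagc
With MNF, Mrpl46 had a change of 0.019 (SE 0.09) and Mrps11 of -0.13 (SE 0.12), with unadjusted p values of 0.838 and 0.289 (limma). Mrpl47 starts 244 bases from Ndufb5, a subunit of respiratory complex I, which had -0.13 (SE 0.10, p 0.21, limma). Mrpl49 starts 186 bases from Fau, a cytosolic ribosomal protein gene, and had -0.11 (p 0.318), whereas Fau had 0.39 (SE 0.14, p 0.0182, adjusted p 0.599, limma). Mrpl18 starts 425 bases from Tcp1, a chaperonin subunit, which had -0.0023 (SE 0.13, p 0.986, limma).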

How the data were processed

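Total RNA of 12 xenografts was hybridised by the authors to Illumina Sentrix Rat Ref-12 arrays. GenomeStudio 1.6.0 is named in the submitters' processing notes. The deposited signal intensities (22517 probes, not normalised) came with a detection p-value for each, computed before deposit; the authors' own Z-normalised values, deposited as a score for 11080 probes, were an alternative. GEO's platform annotation gave 1 symbol for 13259 probes and none for 9258.

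Probes detected on all 12 arrays (p-value under 0.02, 7677 probes) were kept, taken to log2, and each array was centred and scaled to a common SD; the brightest probe stood for a gene. limma 3.58.1 in R 4.3.3 fitted treatment with cohort as covariate, and the 4 groups of treatment and cohort for within-cohort values and the interaction, with Benjamini-Hochberg adjustment over 7620 tests. Tumors are separate animals. Their number limits the precision: the median residual SD was 0.174 (log2) over the members. The procedure was tested on simulated data with planted changes larger than any change of a member with MNF. It therefore does not show how often changes of the size seen here would be found.

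Members and lists were chosen with earlier results of these data known. Named genes were, per subunit, the 4 of smallest p in each direction for MNF, the 3 for cohort, the 2 for the interaction, undetected members, and the smallest p in each direction of each list. Genes listed as not overlapping, neighbours of members, Mrps7, Chchd1, Aurkaip1 and Myl1 were named after their values were seen. Alternatives were other normalisations, detection filters, an offset of 50, every probe, no covariate, a replicate block, array quality weights and leaving out each tumor. Same-numbered MNF and vehicle tumors were not treated as pairs, since the labels state no pairing.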

Additional observations from a re-analysis of the deposited data

Results flagged for a closer look

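Of 76 sets of 6 tumors searched (each named gene and the subunit medians in each group), 4 had a tumor apart from the other 5 by Dixon's criterion, and chance gives about 1 in 20. Mrpl18 was at -0.90 in vehicle tumor 5, whereas the other vehicle tumors lay between -0.69 and -0.58. Rars2 was at -0.34 in MNF tumor 1, and the other MNF tumors lay between -1.11 and -1.04. Mterf4 was at -1.80 in MNF tumor 2, against -1.42 to -1.21 in the others, and Gabpa was at -0.80 in MNF tumor 2, against -1.35 to -1.14.

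The change with MNF differed between the cohorts at an unadjusted p under 0.05 for Mrpl36, by 0.56 on the log2 scale (p 0.00376, limma), and for Mrpl42, by 0.62 (p 0.0129, limma). Neither passed after adjustment (adjusted p 0.529 for both). In each the change was below 0 in cohort 1 and above 0 in cohort 2.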

How the results depend on the processing

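No member passed an adjusted p of 0.05 for MNF, for cohort or for their interaction under any alternative run. The count of members lower with MNF at an unadjusted p under 0.05, 6, was 4 to 9 under the other normalisations, filters and models, except 12 of 60 with no detection filter, and 3 to 10 when 1 tumor was left out, with 3 without MNF tumor 5 and 10 without vehicle tumor 6. The members below 0 numbered 35 to 44 under other processing and 34 to 45 with 1 tumor left out, and the median change -0.094 to -0.049 and -0.10 to -0.041. The median of all genes tested could move as well. With Z-normalization over all probes it was -0.048, against 0.0013 in the main run, and the member median there was -0.094, with 41 members below 0. The cohort median ran from -0.049 to -0.0027, and from -0.040 to 0.020 with 1 tumor left out, above 0 without MNF tumor 3 or 5 or vehicle tumor 1, 2 or 6. The difference between large and small subunit medians was 0.015 to 0.052, and 0.0035 to 0.078 with 1 tumor left out. The cause of these shifts was not tested. With the replicate number as a block, 6 members were lower at an unadjusted p under 0.05, 39 were below 0, the median was -0.086 and 0 passed adjustment. The correlation of same-numbered tumors ran from -0.19 to 0.38. For numbers 1 and 6 the best match was the tumor of the same number, and for the others it was not. The labels state no pairing, and these correlations cannot show whether there was any. Mrps24 kept its direction and an unadjusted p under 0.05 in 25 of 25 settings, with changes of -0.41 to -0.30. Mrps17 did so too, with changes of -0.35 to -0.24. Mrpl18, Mrps12, Mrps18a and Mrpl47 kept their direction in all settings, with that p in 22, 21, 20 and 19 of them. Adding the 3 lower-case symbols, chosen after seeing the data, gave 7 lower and 41 below 0. The number of tumors, 6 a group, limits the precision of each change.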
